A study of Mus musculus with 16 samples.

Results

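Polyamines are small, positively charged molecules that bind nucleic acids and are needed for translation and growth. Cells make putrescine from ornithine, convert it to spermidine and then to spermine with groups supplied by decarboxylated S-adenosylmethionine, and return the larger polyamines to smaller ones by acetylation and oxidation. In skeletal muscle, Odc1, Amd1 and Smox are known as genes that support fibre size and respond to androgen and to disuse. The 9 genes described here are the mRNA-table genes named Odc1, Amd1, Srm, Sms, Sat1, Smox, Azin1, Oaz1 and Oaz2. They were taken by gene name, they make up 9 of 23235 gene names, and they hold 64 of 82388 transcripts.

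RNA was sequenced from skeletal muscle of 16 male C57BL/6 mice (C57BL/6J in the growth protocol), 6 weeks old when the study began, with 1 library per mouse and 4 mice in each of 4 groups. The control group ate a normal diet, and the HFD group ate a high-fat diet with 60% fat for 8 weeks. The HFD + RSV group had the same 8 weeks of HFD and then resveratrol (RSV), a plant polyphenol, for 6 weeks. The HFD + metformin group had 8 weeks of HFD and then metformin, a glucose-lowering drug, for 6 weeks. The study's methods do not say whether the HFD mice were kept for those 6 weeks or received a solvent by mouth. If they were not, age, time on the diet and dosing cannot be told apart from the drugs. The study's methods say that some mice of each group they describe, which leaves out HFD + metformin, received insulin before the tissue was taken, and which of the sequenced mice did is not given in the sources used here. All 4 HFD mice carry 1 leading number in their labels that no other group has. If that number marks a cage or a batch, it and the diet cannot be told apart.

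Total counts per mouse over both deposited tables ranged from 20281801 to 34021101. The 7 markers of skeletal muscle fibres summed to between 55816 and 106326 CPM, counts scaled to a common library size, in every library, whereas 5 retina markers summed to at most 1.41 CPM, although the extraction text of the labels speaks of retinas. Even these low retina sums did not overlap between the control group (0.676 to 1.41 CPM) and the HFD group (0.322 to 0.575 CPM). Libraries stood apart in their sums of cell type markers. The 6 white adipocyte markers summed to 4635 CPM in control replicate 3 and 4291 CPM in HFD + metformin replicate 3, against 205 to 1713 CPM in the other 14 mice. The same sum lay between 1030 and 4635 CPM in the control group and between 205 and 1009 CPM in the HFD group, without overlap. Its members did not all follow it. Lep lay between 2.90 and 26.4 CPM in the control group and between 4.32 and 58.6 CPM in the HFD group. The 3 brown adipocyte markers lay between 30.6 and 704 CPM in the control group and between 3.76 and 5.11 CPM in the HFD group, and none of them was at 0 in any mouse. The 6 slow-fibre markers lay between 983 and 2049 CPM in control replicates 2 to 4, at 91.7 CPM in control replicate 1, and between 97.0 and 245 CPM in the HFD group. Of these 15 markers, 1 brown adipocyte marker passed the test between HFD and control. In the brown adipocyte list the HFD + RSV group, at 2.34 to 24.5 CPM, also lay below every control mouse. In such bulk tissue, fewer cells of a type and less RNA per cell cannot be told apart, and the part of tissue makeup in the values below was not tested.

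3 of the sequences behind the counts matter for reading the results, because they mark where a transcript of this pathway is spliced or translated in a way that polyamines are known to control. The Sat1 gene, on the minus strand of chromosome X in the mouse build GRCm38, has a coding transcript, Sat1-201, and a variant, Sat1-207, that contains 1 more exon of 110 bases. That exon, exon 4 of 7 in Sat1-207, holds a stop codon after 11 coding bases and the variant is annotated as a target of nonsense-mediated decay. The Oaz1 and Oaz2 mRNAs hold a stop codon at which the ribosome must change frame to make full-length antizyme, and polyamines are known to favour that change. The first 30 bases of the Sat1 exon at chrX:155215201-155215230 are printed with the stop codon in capitals. The antizyme sites at chr10:80828280-80828309 (Oaz1) and chr9:65686257-65686286 (Oaz2), both on the plus strand, are printed with the frameshift heptamer in capitals.
Sat1 exon 4: gttacagtctcTAGcttcgccatgtacatg
Oaz1 frameshift site: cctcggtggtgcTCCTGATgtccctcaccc
Oaz2 frameshift site: cctctgtggtgcTCCTGATgcccctcaccc
The reference models of the coding transcripts Oaz1-201 and Oaz2-201 leave out 4 bases inside the printed sites, so read counts on these models say nothing about frameshifting itself.

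Per transcript length, Amd1 was the most abundant of the 9 mRNAs. Its FPKM, a count scaled by transcript length and library size, had a median of 168 over the 16 mice and ranged from 96.5 to 357. Smox (median 65.2) and Odc1 (median 61.1) followed, and Smox was above Odc1 in 12 of 16 mice. Oaz1 (26.7), Oaz2 (23.6) and Sms (21.0) were close to each other, with Oaz1 above Oaz2 in 11 mice and Oaz2 above Sms in 14. These levels are of the mRNA table alone. Rows of the lncRNA table lying over the genes held 45.7% of the counts at Oaz1, 13.6% at Oaz2 and 0% at Sms, so this order depends on that split. Azin1 (13.3) and Sat1 (12.4) were level, Azin1 being higher in 9 of 16 mice, and Srm was the lowest at a median of 3.96 FPKM, below Sat1 in 16 of 16 mice. No member dropped out of the filter on low counts, so that 9 of 9 genes were tested.

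The comparison of the HFD group with the control group asks what the diet did to the muscle without either drug. In the edgeR quasi-likelihood fit over 16 mice, none of the 9 genes passed a Benjamini-Hochberg adjusted P of 0.05, while 2.43% of all 15364 genes tested did. By a fold cut-off, an unadjusted P below 0.05 with an absolute log2FC above 1, there were 0 of 9, beside 4.94% of all genes. At an unadjusted P below 0.05 there were 4 of 9, with Sms and Oaz2 higher and Sat1 and Odc1 lower in the HFD group, beside 24.2% of all genes. The median log2FC of the 9 genes was -0.057, against -0.018 over all genes, and the median absolute log2FC was 0.40 against 0.22. In DESeq2, the adjusted P was below 0.05 for the same 4 genes, beside 10.5% of all genes. In the edgeR fit to the 12 mice without the metformin group it was below 0.05 for Sms, Oaz2 and Sat1, beside 10.7%. The control, HFD and HFD + RSV values of each gene by mouse are shown with those of the HFD + metformin group in the plot of CPM by group.

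**Figure D1:**
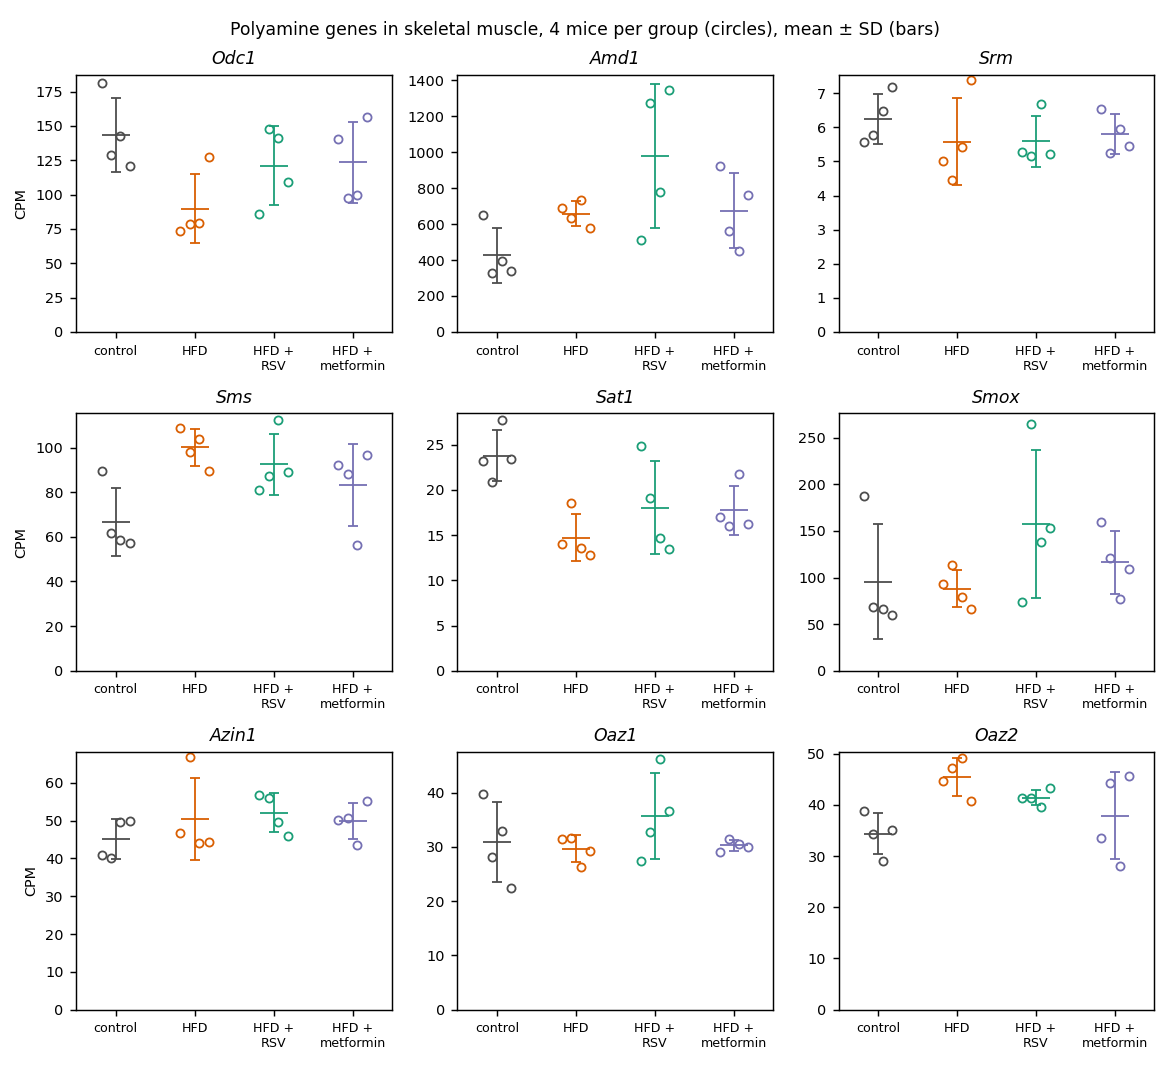
Scaled counts (CPM, y axis, from 0) of the 9 polyamine genes in the control, HFD, HFD + RSV and HFD + metformin groups (x axis). Circles are mice (n = 4 per group), and bars give the mean and SD. Sms and Oaz2 in the HFD group lie above, and Sat1 lies below, every control mouse, whereas the Odc1 and Amd1 groups overlap.

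Synthesis begins with Odc1 (chr12:17544794-17551505, plus strand), ornithine decarboxylase, which makes putrescine and is the classical rate-limiting step. Odc1 lay at 182, 129, 143 and 121 CPM in the 4 control mice and at 73.2, 78.9, 79.7 and 128 CPM in the 4 HFD mice. 3 HFD mice were below every control mouse, and HFD replicate 4 lay among the controls, so the groups overlapped. The mean was 143 ± 27.0 CPM (SD, n = 4) in the control group and 89.8 ± 25.4 CPM (SD, n = 4) in the HFD group. The log2FC was -0.68 (SE 0.22, unadjusted P = 0.00886, edgeR adjusted P = 0.0968), and the exact two-sided permutation test of 4 mice against 4 gave P = 0.0571, where the smallest possible P is 0.0286. Without HFD replicate 4 the log2FC was -0.89 (edgeR adjusted P = 0.0647). That mouse also had the highest white adipocyte sum of the HFD group, 1009 CPM against 205 to 523 CPM in the other 3.

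Amd1 (chr10:40287458-40302186, minus strand) encodes S-adenosylmethionine decarboxylase, which supplies the aminopropyl groups for spermidine and spermine. It lay at 652, 327, 393 and 337 CPM in the control mice and at 687, 634, 735 and 576 CPM in the HFD mice. Control replicate 1 stood above the other controls and inside the HFD range, and the remaining 3 controls lay below every HFD mouse. The log2FC was 0.62 (SE 0.31, edgeR adjusted P = 0.227), and without control replicate 1 it was 0.90 (edgeR adjusted P = 0.0864). Control replicate 1 was also the highest control for Smox (187 CPM against 59.3 to 68.9), Sms and Odc1, and the lowest for the slow-fibre markers. The HFD + RSV group went the other way. Its slow-fibre sums in replicates 1 to 4 were 114, 463, 195 and 1223 CPM, beside Amd1 at 512, 1275, 777 and 1344 CPM. A link between them was not tested.

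Sms (chrX:157443855-157492287, minus strand) and Srm (chr4:148591503-148594993, plus strand) encode the aminopropyltransferases that make spermine and spermidine. Sms lay at 89.4, 61.8, 58.6 and 57.2 CPM in the control group and at 109, 98.1, 104 and 89.6 CPM in the HFD group. The 2 groups did not overlap, although control replicate 1 and HFD replicate 4 were almost level. The SD was 15.2 CPM in the control group and 8.18 CPM in the HFD group (n = 4 each), around medians of 60.2 and 101 CPM. The log2FC was 0.58 (SE 0.17, unadjusted P = 0.00435, edgeR adjusted P = 0.0750, exact permutation P = 0.0286). Without control replicate 1 the edgeR adjusted P was 0.0280. Srm lay between 5.56 and 7.18 CPM in the control group and between 4.45 and 7.40 CPM in the HFD group, with a log2FC of -0.17 (SE 0.15, edgeR adjusted P = 0.531).

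On the turnover side, Sat1 (chrX:155213132-155216449, minus strand) encodes spermidine/spermine N1-acetyltransferase, the inducible enzyme that acetylates polyamines for export or oxidation. Sat1 lay at 23.1, 20.9, 27.7 and 23.4 CPM in the control mice and at 14.1, 18.5, 13.5 and 12.8 CPM in the HFD mice. Every HFD mouse was below every control mouse. The mean was 23.8 ± 2.82 CPM in the control group and 14.7 ± 2.60 CPM in the HFD group (SD, n = 4 each), and the log2FC was -0.69 (SE 0.18, unadjusted P = 0.00176, edgeR adjusted P = 0.0573, exact permutation P = 0.0286). The adjusted P ranged from 0.00940 to 0.170 over the alternatives, and the log2FC from -0.85 to -0.61. Groups that do not overlap in CPM, as for Sms, Sat1 and Oaz2, were found for 18.3% of all genes in this comparison. For these 3 genes the permutation P of 0.0286 is the smallest possible and restates the lack of overlap. After Benjamini-Hochberg adjustment over the 54 permutation tests of the members it was 0.386 for each.

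Smox (chr2:131491496-131525922, plus strand) encodes spermine oxidase, which returns spermine to spermidine. It lay at 187, 68.9, 66.3 and 59.3 CPM in the control group and at 92.6, 114, 79.4 and 66.7 CPM in the HFD group, and the log2FC was -0.11 (SE 0.40, edgeR adjusted P = 0.892). Its direction rested on control replicate 1, without which the log2FC was 0.44 (edgeR adjusted P = 0.425).

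The antizymes Oaz1 and Oaz2 bind ornithine decarboxylase and send it to the proteasome, and Azin1 is an inactive relative of the decarboxylase that binds antizyme in its place. Their genes lie at chr10:80826656-80829290 (Oaz1, plus strand), chr9:65668001-65690300 (Oaz2, plus strand) and chr15:38487427-38519266 (Azin1, minus strand). Oaz2 lay at 38.9, 34.4, 29.1 and 35.0 CPM in the control mice and at 44.6, 47.2, 49.2 and 40.7 CPM in the HFD mice, without overlap. The log2FC was 0.40 (SE 0.13, unadjusted P = 0.00884, edgeR adjusted P = 0.0967, exact permutation P = 0.0286). On the log2(FPKM + 1) scale, where transcripts are weighted by length, the difference was 0.14 (limma adjusted P = 0.431). Oaz1 lay between 22.5 and 39.8 CPM in the control group and between 26.2 and 31.6 CPM in the HFD group (log2FC -0.057, SE 0.16, edgeR adjusted P = 0.861). Azin1 lay between 40.1 and 49.8 CPM in the control group and between 44.2 and 66.7 CPM in the HFD group, the highest value being that of HFD replicate 2 (log2FC 0.16, SE 0.13, edgeR adjusted P = 0.475).

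Leaving out control replicate 3 and HFD + metformin replicate 3, the 2 libraries with the highest white adipocyte sums, left the log2FC for HFD versus control at -0.68 for Odc1, 0.52 for Sms, -0.61 for Sat1 and 0.33 for Oaz2. The edgeR adjusted P was then 0.139, 0.0669, 0.0795 and 0.0896, and 3.58% of all genes passed. Leaving out HFD + metformin replicate 3 alone, a mouse of neither group, brought 10.2% of all genes past the threshold in this comparison, with Sms (edgeR adjusted P = 0.0218), Sat1 (0.0257) and Oaz2 (0.0306) among them. Sat1 also passed without HFD + RSV replicate 1 (edgeR adjusted P = 0.0468).

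The comparison of the HFD + RSV group with the HFD group asks what differed with RSV on top of the diet. The limits on age, time and dosing given above hold for it and for the comparison with metformin. No member passed an adjusted P of 0.05 in edgeR or DESeq2, or an unadjusted P of 0.05 in edgeR, beside 0% and 4.72% of all genes in edgeR and 0.0521% in DESeq2. The log2FC was above 0 for 7 of 9 genes and below 0 for Sms and Oaz2. The median log2FC of the members was 0.27, against 0.0049 over all genes. No member was without overlap between the groups, beside 4.2% of all genes, and none met the fold cut-off, beside 1.08%. In the same mice the 5 red blood cell markers summed to 507 to 1343 CPM, against 362 to 477 CPM in the HFD mice, and the 6 markers of denervated fibres to 40.3 to 42.6 CPM, against 30.1 to 35.1 CPM. Neither sum overlapped between these groups, no marker of either list passed the adjusted test, and their part in the values was not tested. Taken singly, each denervated-fibre marker did overlap. Chrna1 lay at 5.50 to 20.1 CPM in the HFD + RSV mice and 7.49 to 8.49 CPM in the HFD mice. Gadd45a lay at 12.4 to 20.5 CPM and 11.3 to 14.7 CPM.

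Smox showed the widest gap between HFD + RSV and HFD mice. It lay at 74.2, 264, 138 and 153 CPM in the HFD + RSV mice, against 66.7 to 114 CPM in the HFD mice. 3 of the 4 HFD + RSV mice were above every HFD mouse, and HFD + RSV replicate 1 was below 3 of them. The log2FC was 0.84 (SE 0.40, unadjusted P = 0.0566, edgeR adjusted P = 0.999), and it was 0.47 without HFD + RSV replicate 2. Amd1 lay at 512, 1275, 777 and 1344 CPM, with 3 mice above every HFD mouse and replicate 1 below all of them (log2FC 0.57, SE 0.31, unadjusted P = 0.0820, edgeR adjusted P = 0.999). Odc1 lay at 86.1, 148, 141 and 109 CPM (log2FC 0.43, SE 0.22, unadjusted P = 0.0747, edgeR adjusted P = 0.999), and 2 of these 4 mice were above every HFD mouse. For the other 6 genes the log2FC lay between -0.13 and 0.29.

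**Figure D2:**
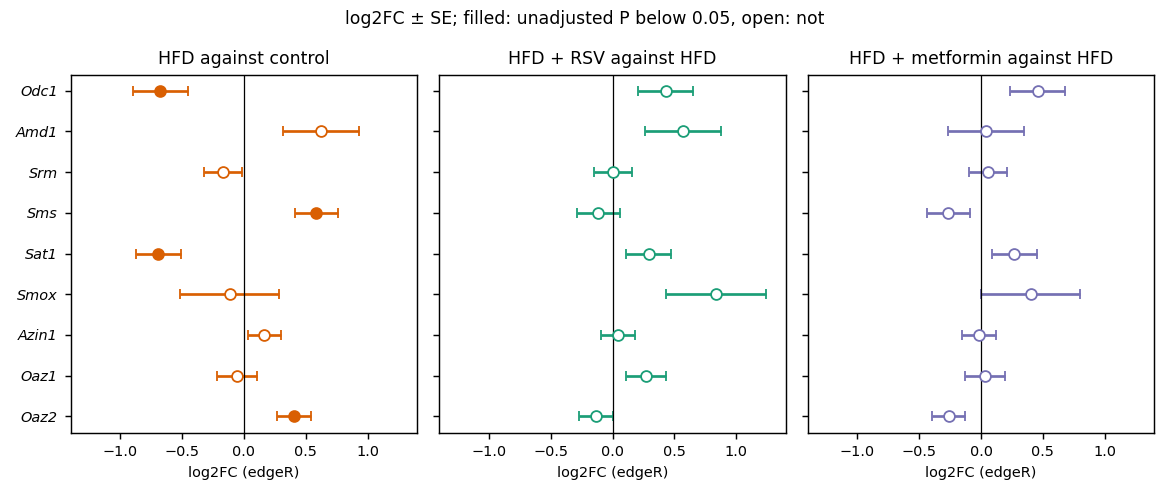
Difference in expression (x axis, log2FC with its SE from the edgeR fit to 16 mice) of the 9 polyamine genes (y axis) for HFD versus control, HFD + RSV versus HFD and HFD + metformin versus HFD. Filled points have an unadjusted P below 0.05, which holds for 4 genes in the comparison of diets and for none in either comparison with a treatment. No gene passed the adjusted P of 0.05 in this fit.

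The comparison of the HFD + metformin group with the HFD group asks the same of metformin. None of the 9 genes passed an adjusted P of 0.05 in edgeR or DESeq2, or an unadjusted P of 0.05 in edgeR, beside 0.013% and 8.02% of all genes in edgeR and 0.219% in DESeq2. None met the fold cut-off or was without overlap between the groups, beside 1.76% and 3.72%. The red blood cell markers summed to 499.6 to 1393 CPM in the HFD + metformin mice, again without overlap with the HFD mice, 0 of 5 passed the adjusted test, and their part in the values was not tested. Odc1 lay at 140, 97.4, 99.4 and 157 CPM in the HFD + metformin mice, of which 2 were above every HFD mouse (log2FC 0.46, SE 0.22, unadjusted P = 0.0587, edgeR adjusted P = 0.626). Oaz2 lay at 33.5, 44.3, 28.1 and 45.5 CPM, and 2 of these mice were below every HFD mouse (log2FC -0.26, SE 0.13, unadjusted P = 0.0701, edgeR adjusted P = 0.635). For Amd1 the log2FC was 0.038 (SE 0.30), and its 4 values, 924, 561, 453 and 764 CPM, lay on both sides of the HFD range. HFD + metformin replicate 3, the adipocyte-rich library, had the lowest value of its group for Amd1, Smox, Sms, Azin1 and Oaz2 and the highest for Sat1. The comparison of HFD with control and the comparisons of treated mice with HFD share the 4 HFD mice, so that a deviation of these mice enters them with opposite sign. The opposite signs of Odc1 and Sat1 before and after treatment are therefore given as values only.

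Against the control group, which shares no mouse with the treated groups, Amd1 had the largest difference among the members. The 4 HFD + RSV mice, at 512 to 1344 CPM, were above 3 of the 4 control mice, and replicate 1 was below control replicate 1. The log2FC was 1.19 (SE 0.31, unadjusted P = 0.00159, edgeR adjusted P = 0.149, exact permutation P = 0.0571), and 15.8% of all genes had an unadjusted P below 0.05. In DESeq2 the adjusted P was 0.0101, with 2.7% of all genes called, and over the alternatives the adjusted P ranged from 0.0101 to 0.379. Amd1 was also the 1 of 9 members that met the fold cut-off, beside 2.72%. In edgeR no member passed with all mice (0.00651% of all genes did), with 12 mice (1.53%), without HFD + metformin replicate 3 (1.68%) or without both adipocyte-rich libraries (0.342%). Sms (log2FC 0.47, SE 0.17) and Sat1 (log2FC -0.40, SE 0.18) had unadjusted P values of 0.0163 and 0.0431 in the same comparison, with edgeR adjusted P values of 0.227 and 0.304. The Oaz2 values, 39.7 to 43.4 CPM, were above every control mouse (log2FC 0.27, edgeR adjusted P = 0.339), as happened for 11.3% of all genes. In the HFD + metformin group against the control group, Amd1 (log2FC 0.66, SE 0.31) and Sat1 (log2FC -0.42, SE 0.18) had unadjusted P values of 0.0478 and 0.0341, beside 9.5% of all genes, and edgeR adjusted P values of 0.521 and 0.478. No member passed in edgeR with all mice (0% of all genes did), in DESeq2 (0.918%), without HFD + metformin replicate 3 (1.16%) or without both adipocyte-rich libraries (0.245%), met the fold cut-off (1.63%) or was without overlap (3.53%). Between the HFD + RSV and HFD + metformin groups no member had an unadjusted P below 0.05, beside 4.68% of all genes, was without overlap, beside 1.56%, met the fold cut-off, beside 0.97%, or passed in DESeq2, beside 0.0651%. The denervated-fibre sums did not overlap between these groups either, at 22.9 to 35.2 CPM in the HFD + metformin mice, although each marker taken singly did.

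The 3-coefficient test of any difference among the 4 groups gave unadjusted P values of 0.0130 for Sat1, 0.0135 for Amd1, 0.0255 for Sms and 0.0485 for Oaz2, beside 15.4% of all genes below 0.05. The edgeR adjusted P of the 9 genes was 0.230 or higher in this test, which 18 genes, or 0.117%, passed.

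The level of Amd1 is uncertain because of its copies. Amd2, at chr10:35708675-35711892, is a coding gene whose transcript shares 3190 identical bases with Amd1-201, or 99.6% of its 3204 bases, and 73.2% of all 100-base windows of Amd1-201 occur base for base in Amd2. In 11 mice Amd2 held between 40.1% and 42.5% as many counts as Amd1. In the other 5 mice, HFD replicate 4, HFD + RSV replicates 1 and 4 and HFD + metformin replicates 2 and 3, it held 0.313% to 0.448%, with 40 to 94 counts against 2751 to 12263. In these 5 mice a row of the lncRNA table lying over Amd2, NONMMUT139915.1, held 121 to 393 counts, against 1 to 36 in the 11. No control mouse was among the 5. Adding the counts of Amd2 and of that row to Amd1 gave a log2FC of 0.52 for HFD versus control (edgeR adjusted P = 0.423), 0.98 for HFD + RSV versus control (edgeR adjusted P = 0.250) and -0.036 for HFD + metformin versus HFD.

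Copies touched other members too. Of the 100-base windows of the most abundant transcript of each gene, 76.4% were found in a transcript of another gene for Amd1, 46.8% for Oaz1, 27.7% for Sms and 19.6% for Odc1, against 4.06% or less for Azin1, Oaz2, Sat1, Smox and Srm. The pseudogene Sms-ps, in which all 1002 of the shared Sms windows were found, lay between 42.4 and 68.0 CPM in the control group and between 68.5 and 79.0 CPM in the HFD group. Oaz1-ps held 1112 to 1912 counts per mouse, more than Oaz1 in the mRNA table in 16 of 16 mice. With the lncRNA-table rows at Oaz1 added, which are described below, this order turned in some mice. Oaz1 and these rows together held 2576 counts against 1573 for Oaz1-ps in HFD replicate 3, and 1727 against 1135 in control replicate 4. The genes whose log2 CPM followed a member most closely over the 16 mice were largely such copies. For Amd1 they were Amd-ps3 (Pearson r = 0.99), F830016B08Rik (0.94) and Amd-ps1 (0.93), and for Odc1 they were Gm17709 (0.97), Gm7993 (0.96) and Gm9115 (0.95). Of these 6 genes, 5 hold windows of the member's own transcript, F830016B08Rik being the exception. For Smox, which shares no window, they were Cdkal1 (0.91), Gm2445 (0.90) and Slc38a4 (0.88).

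**Figure D3:**
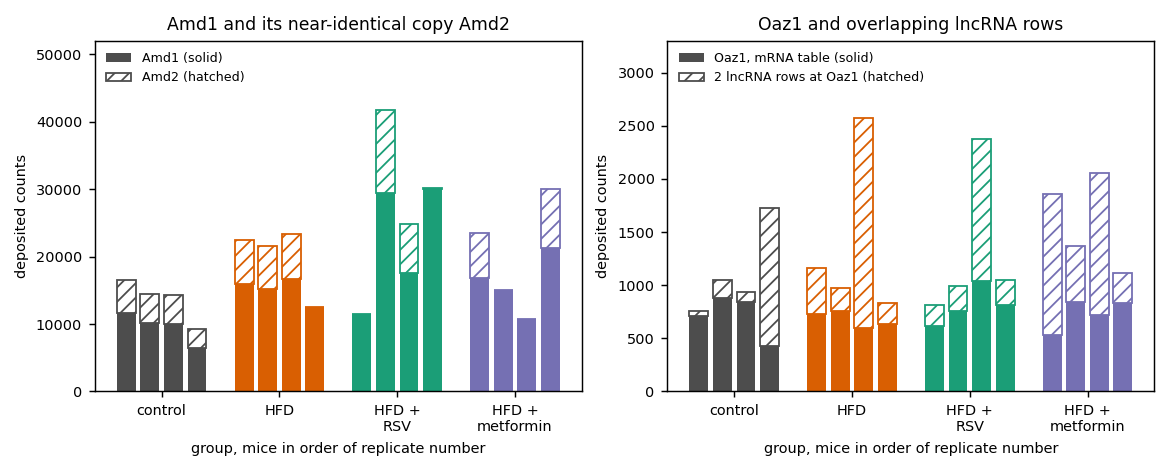
Deposited counts per mouse (y axis) of Amd1 with Amd2 stacked on top (left) and of Oaz1 with the 2 overlapping lncRNA rows stacked on top (right), for the 4 mice of each group (x axis). Amd2 is near 0 in 5 mice, none of them a control, and the rows at Oaz1 hold between 6.35% and 77.0% of the counts there.

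Counts at the Oaz1 locus were divided between the deposited tables. The lncRNA rows were matched to the gene by position alone, without regard to strand. Whether their reads come from Oaz1 mRNA was not tested. The row NONMMUT006436.2 of the lncRNA table spans the gene, from chr10:80826656-80829284, and held 24 to 1964 counts per mouse. With the 2 rows at the locus, the lncRNA table held 6.35% to 75.0% of the counts there in the control mice and 21.6% to 77.0% in the HFD mice. With both rows added, the log2FC of Oaz1 for HFD versus control was 0.26 (SE 0.46, edgeR adjusted P = 0.764), the opposite sign to the mRNA table. At Oaz2, 13 rows held 13.6% of the counts, and at the other 7 genes 4.11% or less, and with them added Oaz2 had a log2FC of 0.37 (SE 0.12).

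Below the level of the gene, 54 of the 64 transcripts of the 9 genes had enough counts to test. None passed an edgeR adjusted P of 0.05 for HFD versus control, where 0.0157% of 44573 transcripts did, or in the comparisons of the HFD + RSV and HFD + metformin groups with the HFD group, where 0% and 0.00449% did. At an unadjusted P below 0.05 there were 11, 5 and 4 of the 54, beside 13.1%, 5.02% and 6.07% of all transcripts. Amd1-201 held 98.6% of the Amd1 counts, Sms-201 95.5% of the Sms counts, Srm-201 84.7% of the Srm counts and Odc1-201 83.4% of the Odc1 counts. In Azin1 the most abundant transcript, Azin1-205 with 42.8% of the counts, is annotated as a target of nonsense-mediated decay, and in Sat1 the transcripts Sat1-205 and Sat1-206 with a retained intron held 41.3% and 24.2%. Smox counts were spread over 17 transcripts, of which Smox-210 was highest with 22.6%.

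Among the members' transcripts, the coding transcript Sat1-201 had the smallest P for HFD versus control. It held 60, 124, 125 and 103 counts in the control mice and 27, 42, 24 and 32 in the HFD mice. Every HFD mouse was below every control mouse, and the log2FC was -1.67 (SE 0.25, unadjusted P = 1.12e-05, edgeR adjusted P = 0.0562, exact permutation P = 0.0286). Among genes, 18.3% were without overlap in this comparison and 3.72% for HFD + metformin versus HFD. The share of all transcripts without overlap was not counted, here or for the transcripts below. Over the alternatives the log2FC ranged from -1.85 to -1.56 and the adjusted P from 0.0292 to 0.225. The variant with the extra exon, Sat1-207, held 33 to 69 counts in the control mice and 53 to 66 in the HFD mice (log2FC 0.22, SE 0.21, edgeR adjusted P = 0.738). The retained-intron transcripts Sat1-205 (log2FC -0.78, SE 0.31) and Sat1-206 (log2FC -0.60, SE 0.27) had edgeR adjusted P values of 0.298 and 0.353.

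In the treated mice Sat1-201 held 51, 47, 54 and 34 counts in the HFD + RSV group and 65, 49, 69 and 81 counts in the HFD + metformin group. The HFD + metformin mice were above every HFD mouse (log2FC 1.02, SE 0.25, unadjusted P = 0.00102, edgeR adjusted P = 0.808), and the HFD + RSV range overlapped that of the HFD group (log2FC 0.59, SE 0.25, unadjusted P = 0.0304, edgeR adjusted P = 0.980). Relative to HFD mice, Sat1-207 had a log2FC of 0.046 (SE 0.21) in HFD + RSV mice and -0.29 (SE 0.21) in HFD + metformin mice.

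Because Sat1-201 and Sat1-207 differ only by that extra exon, the share of Sat1-201 in the sum of both was also taken. This measure was chosen after the values were seen and is given without a test. The share was 57.1%, 64.2%, 66.5% and 75.7% in the control mice and 31.8%, 42.4%, 31.2% and 32.7% in the HFD mice. It was 43.6%, 44.8%, 47.0% and 38.6% in the HFD + RSV mice and 60.2%, 57.6%, 59.0% and 51.6% in the HFD + metformin mice. The control group (mean 65.9% ± 7.67, SD, n = 4) and the HFD group (34.5% ± 5.32, SD, n = 4) did not overlap, the HFD + RSV group (43.5% ± 3.52, SD, n = 4) touched the HFD range, and the HFD + metformin group (57.1% ± 3.82, SD, n = 4) lay above it and reached into the control range. With 77 to 193 counts behind each share, the 95% Wilson interval ran, for example, from 22.8% to 42.3% in HFD replicate 1 and from 47.6% to 66.2% in control replicate 1, and it covers counting error only. It treats each deposited count as a separate draw. Reads away from the extra exon and its junctions fit both transcripts, and the error in dividing them is left out, so the interval is too narrow. The adipocyte marker sums described above differ between the control and HFD groups, and the part of tissue makeup in the share was not tested.

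**Figure D4:**
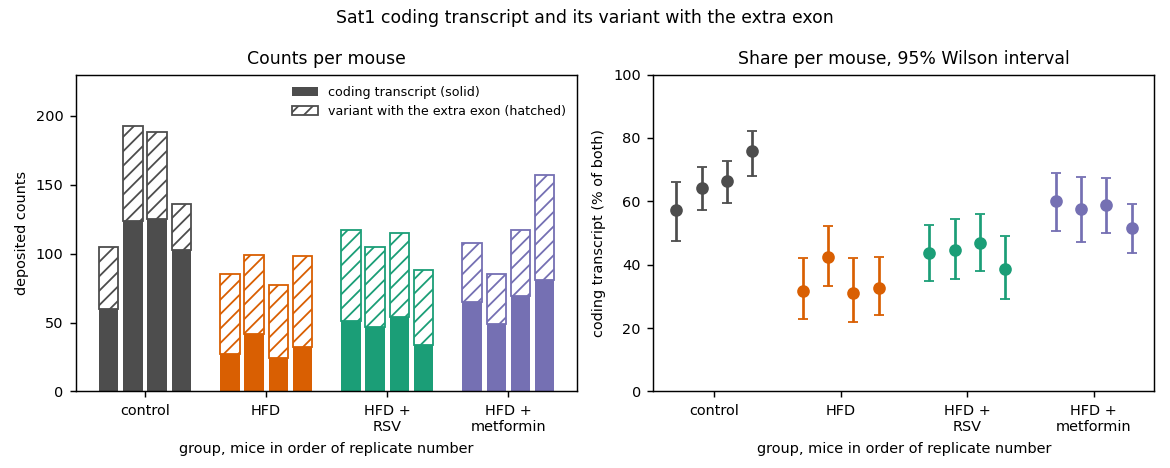
Left, deposited counts (y axis) of the coding transcript Sat1-201 (solid) and of Sat1-207, which contains the extra exon (hatched), stacked for the 4 mice of each group (x axis). Right, Sat1-201 as a percentage of both (y axis) with its 95% Wilson interval, between 57.1% and 75.7% in the control mice and between 31.2% and 42.4% in the HFD mice.

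Other transcripts with an unadjusted P below 0.05 belonged to Odc1, Oaz2, Sms and Smox. Oaz2-201, with 44.2% of the Oaz2 counts, held 253, 454, 255 and 286 counts in the control mice and 495, 553, 717 and 406 in the HFD mice (log2FC 0.84, SE 0.22, unadjusted P = 0.00197, edgeR adjusted P = 0.171). Its CPM values did not overlap between these groups. The log2FC of Oaz2-201 for HFD + metformin versus HFD was -0.68 (SE 0.22, unadjusted P = 0.00801, edgeR adjusted P = 0.808). Oaz2-206, the other main coding transcript, had a log2FC of 0.14 (SE 0.23) for HFD versus control. HFD replicate 3 had the highest Oaz2-201 count of its group, 717, and the lowest Oaz2-206 count, 169. The error in dividing reads that fit both transcripts was not tested. For HFD + RSV versus HFD, Smox-207 had a log2FC of 1.13 (SE 0.39, unadjusted P = 0.0113, edgeR adjusted P = 0.953).

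From mouse to mouse, after the group means were removed, none of the 36 pairs of members had an adjusted P below 0.05. The closest pair was Amd1 and Smox, with Pearson r = 0.84 over 16 mice (permutation P = 0.00179, adjusted over the pairs 0.0644) and Spearman rho = 0.81 (permutation P = 0.00212, adjusted 0.0763). Without the 2 mice farthest from the median of Amd1, r was 0.73. Control replicate 1 and HFD + RSV replicate 2 were high and HFD + RSV replicate 1 was low for both genes. In the HFD + metformin group, replicate 1 was the highest and replicate 3 the lowest for both. HFD + RSV replicate 4 had the highest Amd1 of its group but not the highest Smox.

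The wider pathway was read from a list of 30 genes for ornithine and S-adenosylmethionine supply, paralogues, methionine salvage, polyamine transport and hypusine, the spermidine-derived modification of the translation factor eIF5A. Of these, 26 had enough counts, and 1 passed an adjusted P of 0.05 for HFD versus control, beside 2.43% of all genes, while none did in either comparison of a treated group with the HFD group. At an unadjusted P below 0.05 there were 7, 1 and 4 of the 26 in these 3 comparisons, beside 24.2%, 4.72% and 8.02% of all genes. The gene that passed was Eif5a2, the tissue-restricted paralogue of eIF5A. It lay at 3.37, 4.25, 3.52 and 3.74 CPM in the control mice and at 2.51, 2.54, 2.39 and 1.75 CPM in the HFD mice, and fell by 0.70 on the log2 scale (SE 0.17, edgeR adjusted P = 0.0478). The groups did not overlap, yet 17 of 25 alternatives lost the call, with the adjusted P between 0.00893 and 0.119, including 0.119 without control replicate 2 and 0.0554 without the adipocyte-rich libraries. Relative to HFD mice, the log2FC of Eif5a2 was 0.47 with RSV (SE 0.17, edgeR adjusted P = 0.999) and 0.54 with metformin (SE 0.17, edgeR adjusted P = 0.600). Among the relatives of the 9 genes, Amd2 is described above. Paox, the oxidase of acetylated polyamines, lay between 2.55 and 9.34 CPM over the 16 mice, Sat2 between 1.90 and 2.58 CPM, Azin2, a second antizyme inhibitor, between 2.16 and 4.73 CPM, and Oaz3, the testis antizyme, at 0.440 CPM or less.

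RefSeq promoters of GRCm38.p6, from 250 bases before to 50 bases after the start, were given for 7 of the 9 genes. The letters CACGTG, the E-box bound by Myc family factors, occurred on either strand in the promoter of Sms alone among the 7, and in 7.15% of all 32851 promoters. The cyclic AMP response element TGACGTCA occurred in none of the 7 and in 1.79% of all promoters, and TATAAA occurred in Oaz1 alone and in 13.6% of all promoters. These matches describe the letters in this window and not sites in use.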

How the data were processed

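One library per mouse was made from skeletal muscle of 16 mice, 4 per group. Per the study's methods, ribosomal RNA was depleted and paired-end libraries were counted with StringTie. The submitters' processing notes name fastp and HISAT2 and the build GRCm38, without versions. The authors deposited whole-number expected counts per transcript and mouse in an mRNA and a lncRNA table. The authors deposited FPKM values beside them, from which the library total of each mouse was recovered to within 0.0098%. Strand handling is not given in the sources used here. In the mRNA table, 4 rows split over 2 lines were joined.

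Counts were summed per gene name. Genes were filtered with filterByExpr (minimum count 10, total 15), scaled by TMM and fitted over all 16 mice with the robust quasi-likelihood test of edgeR 4.0.16 (R 4.3.3), with Benjamini-Hochberg adjustment over the 15364 genes tested. Transcripts (44573) were fitted the same way. SE is the absolute log2FC divided by the square root of F. CPM used TMM-scaled library sizes of the mRNA table. Single genes were also compared by exact two-sided permutation of 4 mice against 4. Pairs of members used log2 CPM and 100000 permutations within groups (seed 1). Positions and sequences came from GENCODE M21, promoters from RefSeq.

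The common coefficient of variation between mice was 0.261 for genes and 0.582 for transcripts. The study's methods state 4 mice per group but do not describe the HFD + metformin group, and its 4 differently labelled samples were taken as separate mice. If they were not, their p-values measure the spread between samples, which may be technical. Alternatives were DESeq2 1.42.0 and its size factors, no filter, limma 3.58.1 on log2(FPKM + 1), unscaled library size, 12 mice, each mouse left out, a fold cut-off, and additions chosen after seeing the data: the 2 adipocyte-rich libraries left out, Amd2 counts added to Amd1, lncRNA-table rows added to members and the last number of each label as a block. The members and gene lists were chosen with earlier results of these data known. Named transcripts were those tested that held 10% or more of their gene's counts or were called. Named wider-pathway genes were those called, plus Amd2, Paox, Sat2, Azin2 and Oaz3; pseudogenes and lncRNA rows were named for shared sequence or position.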

Additional observations from a re-analysis of the deposited data

Results flagged for a closer look

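In 40 sets of 4 mice (9 genes and the Sat1-201 share in 4 groups), the gap between the most extreme mouse and its neighbour was a larger part of the range than Dixon's 95% critical value in 6. Chance flags about 1 in 20. The gap was 0.848 of the range for Odc1 log2 CPM in HFD replicate 4 (high), 0.869 for Smox in control replicate 1 (high), 0.831 for Sms in HFD + metformin replicate 3 (low), 0.914 for Srm in HFD + RSV replicate 3 (high), 0.867 for Azin1 in HFD replicate 2 (high) and 0.868 for the Sat1-201 share in HFD replicate 2 (high). HFD + metformin replicate 3 is one of the libraries with a high white adipocyte sum, and whether this bears on its Sms value was not tested.

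In the lncRNA table, which the comparisons of genes do not use, 20 rows at member genes or Amd2 were searched in the 3 HFD groups, and 2 of them were above every control mouse in a group. In each group that was 0 of 20 rows (HFD), 2 of 20 (HFD + RSV) and 1 of 20 (HFD + metformin), beside 1.47%, 1.12% and 1.27% of all 58245 rows with a count. ENSMUST00000228225 at Azin1 was at 0.116 CPM or more in the HFD + RSV mice and at 0.0986 CPM or more in the HFD + metformin mice, against at most 0.0954 CPM in the control mice. NONMMUT153806.1 at Oaz2 was at 0.255 CPM or more in the HFD + RSV mice, against at most 0.239 CPM in the control mice. Both rows rest on 12 or fewer counts per mouse.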

How the results depend on the processing

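The last numbers of the mouse labels are shared in part between the groups, and nothing in the labels says what they mark. Deviations from the group means correlated above 0.1 in 6 of 20 pairs of mice with the same number and in 22 of 76 with different ones, so the numbers were not taken to pair the mice. The comparisons differed. It was 2 of 3 against 1 of 13 for HFD against control, and 2 of 4 against 3 of 12 for HFD + RSV against HFD. For HFD + metformin against HFD it was 0 of 4 against 7 of 12. So few pairs cannot settle whether the mice were paired. With that number as a replicate block, a fit chosen after seeing the data, 26 genes were called for HFD versus control and 0 in each of the other 5 comparisons, and 0, 0 and 1 transcripts for diet, RSV and metformin, with 0 members. Eif5a2 had an edgeR adjusted P of 0.0914. The log2FC turned to 0.37 for Smox and 0.056 for Oaz1 (HFD against control) and to -0.022 for Amd1 (metformin against HFD). The leading number could not be used as a block for comparisons with the HFD group, whose mice alone carry theirs.

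The number of genes called for HFD versus control was 374, with 16 to 1588 (without control replicate 2 and HFD + metformin replicate 3) when each mouse was left out, 1544 in DESeq2, 1616 with 12 mice, 158 without a filter, 179 in limma, 212 with unscaled library sizes and 759 at an unadjusted P of 0.05 with an absolute log2FC above 1. Members called were 0, with 4 in DESeq2, 3 with 12 mice and 0 to 3 when each mouse was left out. For HFD + RSV versus HFD, 0 genes were called (725 at an unadjusted P below 0.05), 8 in DESeq2, 166 by the fold cut-off and 0 to 1 by leaving out mice. For HFD + metformin versus HFD, 2 were called, 31 in DESeq2, 271 by the fold cut-off, 0 in limma, 0 without the 2 adipocyte-rich libraries and 0 to 2 by leaving out mice. For the HFD + RSV group against the control group, 1 was called, 359 in DESeq2, 418 by the fold cut-off, 231 with 12 mice, 53 without the adipocyte-rich libraries, 0 in limma and with unscaled libraries and 0 to 261 by leaving out mice. Amd1 alone was called there, in DESeq2 and by the fold cut-off, so members called were 1. For the HFD + metformin group against the control group, 0 were called (1459 unadjusted), 141 in DESeq2, 250 by the fold cut-off, 38 without the adipocyte-rich libraries, 2 in limma and 0 to 180 by leaving out mice. Between the treated groups, 0 were called (719 unadjusted), 10 in DESeq2 and 149 by the fold cut-off.

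Transcripts called numbered 7, 0 and 2 in the 3 comparisons of diet, RSV and metformin. They numbered 2282, 1195 and 1346 by the fold cut-off, with 1, 4 and 2 transcripts of members, and 16, 2 and 1 without the adipocyte-rich libraries. Leaving out mice gave 0 to 261, 0 to 3 and 1 to 4, with 0 to 1 transcript of a member for diet, and no filter gave 0 for diet. On the log2(FPKM + 1) scale, 1 pair of members passed.

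Unscaled library sizes shifted the median log2FC of all genes by -0.15 for HFD against control and by 0.12 for HFD + metformin against HFD. Of 1013 alternative values of single genes and transcripts, 952 kept direction and side of the threshold, 15 passed it, 17, all of Eif5a2, lost it, and 29 turned direction, none of them called. Turned values were 0.26 and -0.067 for Oaz1 with its lncRNA rows (HFD against control, HFD + RSV against HFD), 0.13 and 0.016 for Oaz2 in limma (RSV, metformin against HFD), -0.036 for Amd1 with Amd2 (metformin against HFD), and 0.028 in limma, 0.10 unscaled and 0.044 without the adipocyte-rich libraries for Azin1 (metformin against HFD). Leaving out mice gave -0.28 to 0.44 for Smox and -0.18 to 0.089 for Oaz1 (HFD against control), -0.093 to 0.17 for Srm, -0.015 to 0.21 for Azin1 and -0.013 to 0.13 for Sat1-207 (RSV against HFD), and -0.15 to 0.19 for Amd1, -0.038 to 0.22 for Srm, -0.077 to 0.15 for Azin1 and -0.023 to 0.064 for Oaz1 (metformin against HFD). The cause was not tested.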
